A study of Mus musculus with 10 samples.

Results

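The homologous recombination and Fanconi anemia genes were examined in NP-binding germinal center B cells as a list of 37 mouse genes, matched by symbol, and all 37 were found among the 22380 genes of the transcript tables. The list came from a pathway definition and used no measured value. RNA-seq was performed on B cells sorted as GL7+ and IgD- that bound the hapten NP, 2 weeks after mice of the C57Bl6/N strain label received NP-OVA in alhydrogel. ZBTB38 WT mice were Zbtb38fl/fl without Cre (n = 2), ZBTB38 HET mice were Zbtb38fl/+ with Vav-Cre (n = 2), and ZBTB38 KO mice were Zbtb38fl/fl with Vav-Cre (n = 6). Vav-Cre acts mainly in hematopoietic cells, so the deletion was not restricted to B cells, and the floxed allele, which removes the terminal exon with the whole coding sequence of Zbtb38, descended from a single founder. WT mice carried no Cre, so Cre and the loss of Zbtb38 cannot be told apart between WT and KO, whereas HET and KO both carried it.

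Homologous recombination repairs DNA double-strand breaks and broken replication forks by copying the sister chromatid. Ends are first trimmed by nucleases, BRCA1 with its partner BARD1 and then PALB2 and BRCA2 prepare the single-stranded DNA for strand exchange, and helicases and nucleases resolve the joints that result. The Fanconi anemia pathway removes crosslinks between strands: a core complex with a ubiquitin ligase modifies the FANCD2 and FANCI pair, which then recruits nucleases such as those held by SLX4. Both pathways serve replicating cells, and germinal center B cells divide fast while the deaminase AID damages their immunoglobulin genes.

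The libraries held between 26612431 and 41059082 estimated counts, and the lowest count of any member in any library was 173, so none of the 37 was near the limit of detection. All 10 germinal center marker genes were at 1 TPM (transcripts as a share of the library, scaled to a fixed total) or more in every library. The sixth KO library stood apart on the first principal component, at 147 against 6.22 for the next, with 26.9% of the variance, so results are also given without it. Zbtb38 fell in the KO libraries: it stood at 162 and 152 CPM (counts scaled to a fixed library size) in WT, 117 and 106 in HET, and between 18.6 and 50.3 with a median of 30.3 in KO. In TPM it was at 63.5 and 63.3 in WT, 49.6 in each HET library and between 17.5 and 46.1 in KO. Its log2 fold change was 2.08 for WT plus HET over KO (SE 0.232, edgeR quasi-likelihood test, adjusted p = 0.0104), and it passed with each library left out in turn. For WT over KO it was 2.31 (SE 0.274, adjusted p = 0.0734), and this call was lost without either WT library or without KO replicate 1, 3, 4 or 5, at values between 2.26 and 2.36. For HET over KO, where both carry Cre, it was 1.82 (SE 0.261, adjusted p = 0.128) and did not pass in edgeR. The count covers all its transcripts, so what remains in KO includes exons outside the deletion.

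Levels between genes were compared in TPM, which divides by transcript length. The 37 members had a median of 19.3 TPM (mean of the 10 libraries for each gene), against 11.6 for the 14354 genes tested, and 29 of 37 lay above that median. The highest were Rad54l, a motor protein that drives strand exchange, at 48.4 ± 12.1 TPM (SD, n = 10), and Mus81, a nuclease subunit that cuts branched DNA, at 41.8 ± 6.12. Clspn, the adaptor that lets the kinase ATR activate CHK1, followed at 37.5 ± 8.38, then the core complex ligase Fancl at 36.7 ± 5.90 and Rad18, the ligase that ubiquitinates PCNA at stalled forks, at 36.7 ± 5.10. The lowest were Bard1 at 3.00 ± 0.854, the helicase Wrn at 6.21 ± 2.35, the strand exchange factors Xrcc2 at 7.74 ± 2.88 and Rad51b at 8.46 ± 2.12, and Palb2 at 9.26 ± 2.12.

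The span from Bard1 to Rad54l was 16.2-fold. Neighbours in this order mostly could not be separated: Rad54l lay above Mus81 in 8 of 10 libraries, Clspn above Fancl in 4 of 10 and Fancl above Rad18 in 5 of 10. At the bottom, Wrn was above Bard1 in 10 of 10.

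By role, the 4 end resection genes, which trim broken ends, lay close together, with means between 29.1 TPM (Mre11a) and 30.8 TPM (Nbn). The 4 BRCA mediators had the lowest median of any role, 10.1 TPM, and ranged from Bard1 to Brca1 at 14.2 ± 4.60. Medians were 12.0 TPM for the 5 genes Rad51b, Rad51c, Rad51d, Xrcc2 and Xrcc3, 12.6 for the 3 helicases, 17.7 for the FANCD2 and FANCI pair, 19.2 for the 8 Fanconi core genes, 24.4 for the 3 annealing and motor genes, 28.5 for the 4 junction nucleases and 31.8 for the 4 checkpoint and damage tolerance genes.

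**Figure D1:**
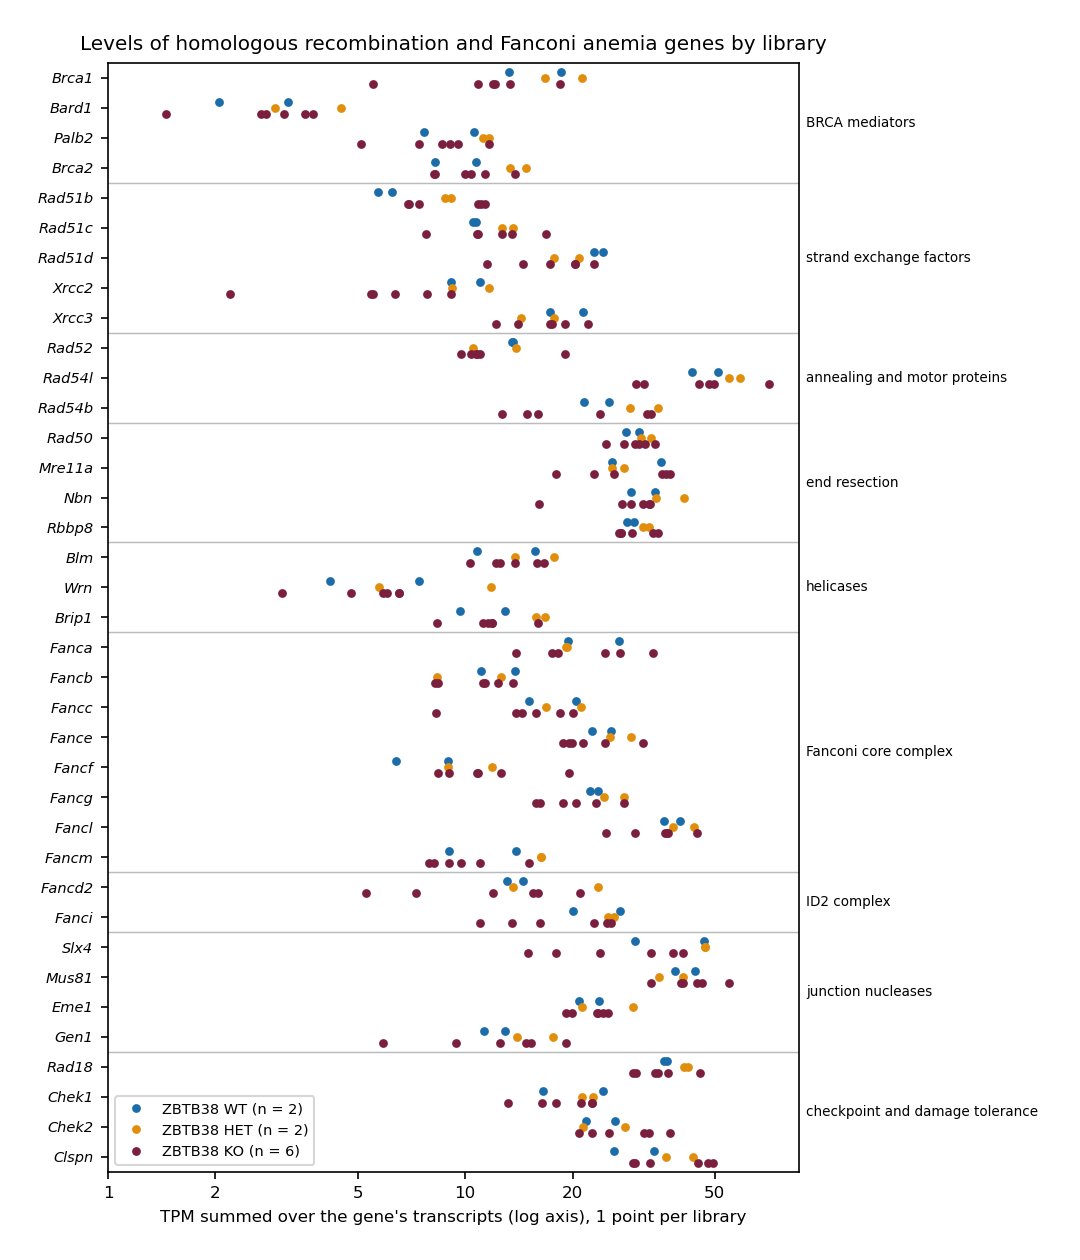
Level of each of the 37 members in each library, in TPM on a log axis, with 1 point per library coloured by genotype (2 ZBTB38 WT, 2 ZBTB38 HET, 6 ZBTB38 KO) and genes ordered by role. Bard1 lies lowest, at a mean of 3.00 TPM, Rad54l highest, at 48.4 TPM, and the genotypes' points overlap for most genes.

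The summed TPM of a gene hides which transcripts carry it. The 37 members had 143 annotated coding transcripts, and in 28 of 37 the most abundant one held the longest coding sequence. In the other 9 it did not. For Clspn, 63.9% of the TPM was assigned to a transcript of 608 bases with 489 coding bases, against 3948 in the longest, and only 29.9% to the latter. Slx4, the scaffold of the junction nucleases, had 25.4% of its TPM in the transcript with the full 4698 coding bases, and its leading transcript of 715 bases carried 27.4%. Brca2 had 26.3% in its 2 transcripts of 9990 coding bases, and 73.7% in one of 3473 bases with 2976 coding.

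Counting only transcripts with at least 90% of a gene's longest annotated coding sequence, 9 members kept under 50% of their TPM and 16 kept at least 90%. Of the latter, the 5 members with 1 annotated transcript are at 100% by annotation alone. So are Rad54l and Rbbp8, whose transcripts all have the same coding length. Clspn then fell from rank 3 to rank 20 among the members and Slx4 from 6 to 25, at 11.2 ± 2.66 and 8.99 ± 4.22 TPM, and Brca2 stood at 2.95 ± 1.15. Rad54l, Mus81, Rad18 and Fancl were then the 4 highest. Salmon divides reads among transcripts that share exons by estimation, and short transcripts gain TPM from few reads: for Clspn the full-length transcript held 82.9% of the estimated counts, and for Slx4 56.9%. How far the short transcripts are real RNAs was not tested.

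**Figure D2:**
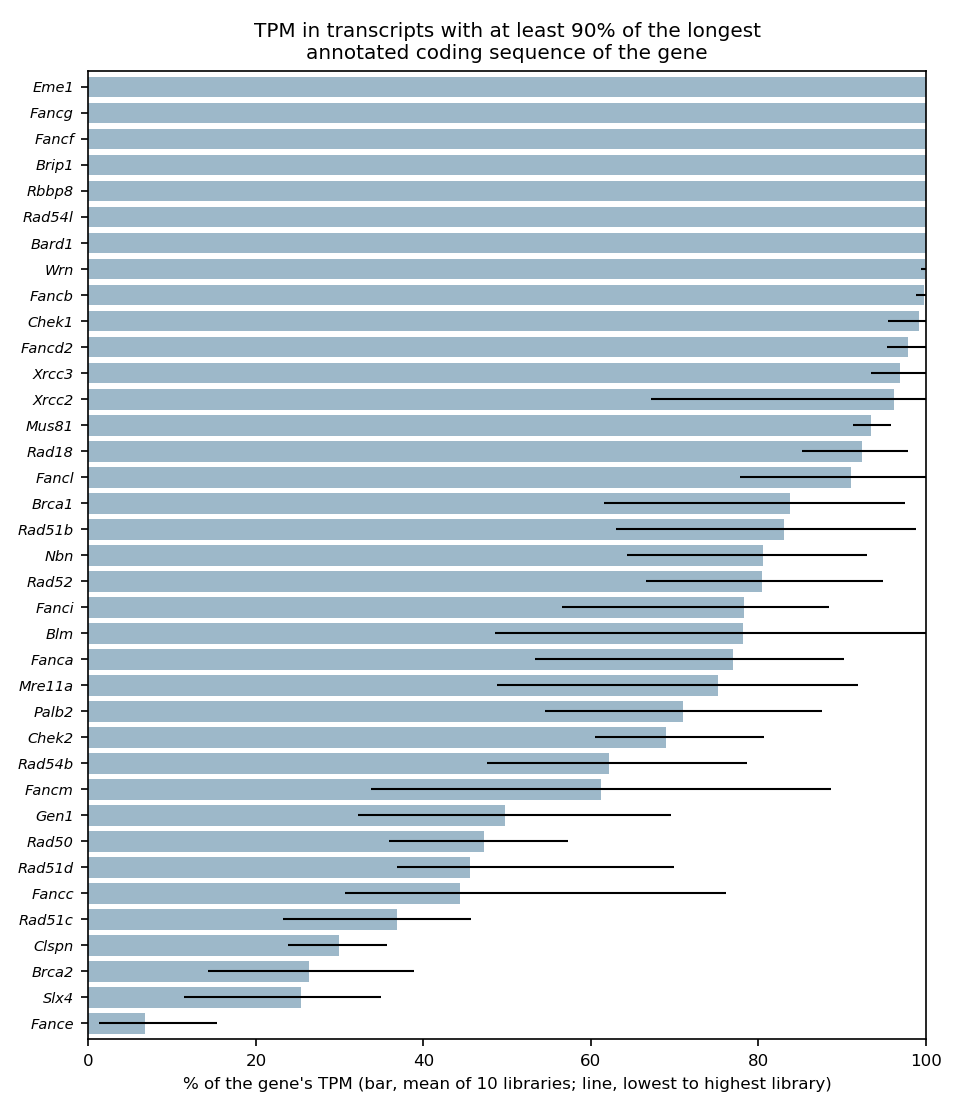
Percent of each member's TPM in transcripts with at least 90% of its longest annotated coding sequence; bars give the mean of the 10 libraries and lines run from the lowest to the highest library. Fance (6.77%), Slx4 (25.4%), Brca2 (26.3%) and Clspn (29.9%) lie lowest. Rad54l, Bard1 and Brip1 are at 100%, as all their annotated transcripts hold the full coding sequence.

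Between WT and KO no member passed the test. Of 37 members tested, 0 had an adjusted p under 0.1 by edgeR's quasi-likelihood test, where 0.00704% of the 14203 genes tested were called, and DESeq2 also called 0 members, beside 0.0575% of 17391 genes. At an unadjusted p under 0.05 the count was 1 of 37 (2.70%) by each tool, against 2.19% of all genes in edgeR and 2.87% in DESeq2. This was 0 members higher and 1 lower in WT, against 1.19% and 1% of all genes. The members' median log2 fold change was -0.05, beside -0.01 for all genes tested, with 16 members (43.2%) higher in WT, where 48.2% of all genes were. Of the members' 95% intervals, 33 of 37 lay within 1 log2 unit of 0 on either side. In simulated data of this design 46% of genes changed 2-fold and 84% changed 4-fold were recovered. There 200 genes were raised in the first genotype, and genes were drawn independently of each other. So many changes ease the adjusted threshold, so these shares may be too high for data with few changes.

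The study also pooled WT and HET as littermate controls, which gives 4 mice against the 6 KO. Again 0 of 37 members had an adjusted p under 0.1 in edgeR, beside 0.00749% of 13347 genes, and 0 in DESeq2, beside 0.143% of 17488. At an unadjusted p under 0.05 there were 4 (10.8%), 3 higher in the controls and 1 lower, against 6.3% of all genes, of which 4.05% were higher and 2.26% lower. DESeq2 also gave 4, against 6.9% of all genes. Without WT replicate 1 or HET replicate 1 this count was 0, without HET replicate 2, KO replicate 3 or KO replicate 4 it was 1, and without KO replicate 6 it was 2. The members' median was 0.08 beside -0.02, 21 of 37 (56.8%) were higher in controls against 47.2% of all genes, and 34 of 37 intervals lay within 1 log2 unit of 0.

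For HET over KO, where both genotypes carry Cre, 0 of 37 members were called in edgeR, where 0.00697% of 14354 genes were, with a smallest adjusted p of 0.37. DESeq2 also called 0 members, with a smallest adjusted p of 0.116, while it called 505 of 17488 genes (2.89%). At an unadjusted p under 0.05 there were 5 (13.5%), all higher in HET, against 10.2% of all genes, of which 5.46% were higher and 4.76% lower in HET. DESeq2 gave 7, against 11.3% of all genes. Without HET replicate 2 the count was 0, without KO replicate 3 it was 1, without HET replicate 1, KO replicate 1 or KO replicate 4 it was 3, and without KO replicate 6 it was 4. The members' median was 0.16 beside -0.07, and 25 of 37 (67.6%) were higher in HET where 43.7% of all genes were. Without HET replicate 2 the median was 0.08.

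For WT over HET, 2 mice against 2, 0 of 37 members were called in edgeR (0.00697% of 14354 genes). DESeq2 called 0 members and 168 of 17488 genes (0.961%), and edgeR on only these 4 libraries called 1 member, Gen1, and 523 of 13220 genes (3.96%). At an unadjusted p under 0.05 there were 3 (8.11%), all lower in WT, against 6.42% of all genes, of which 3.98% were higher and 2.44% lower in WT. DESeq2 also gave 3, against 7.33% of all genes. Of 37 members, 29 were lower in WT and 8 (21.6%) higher, where 51.1% of all genes were higher, and the median was -0.26 beside 0.01. Without WT replicate 1 the median was -0.41 with 5 members under 0.05, and without WT replicate 2 it was -0.15 with 0. Without HET replicate 1 the count was 1, and without HET replicate 2 it was 0. The intervals were widest here, with 21 of 37 within 1 log2 unit of 0. The simulated recovery of 2-fold changes was 21%, with the same limit as for WT over KO. These comparisons share libraries, so their values are given side by side and not as separate evidence.

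**Figure D3:**
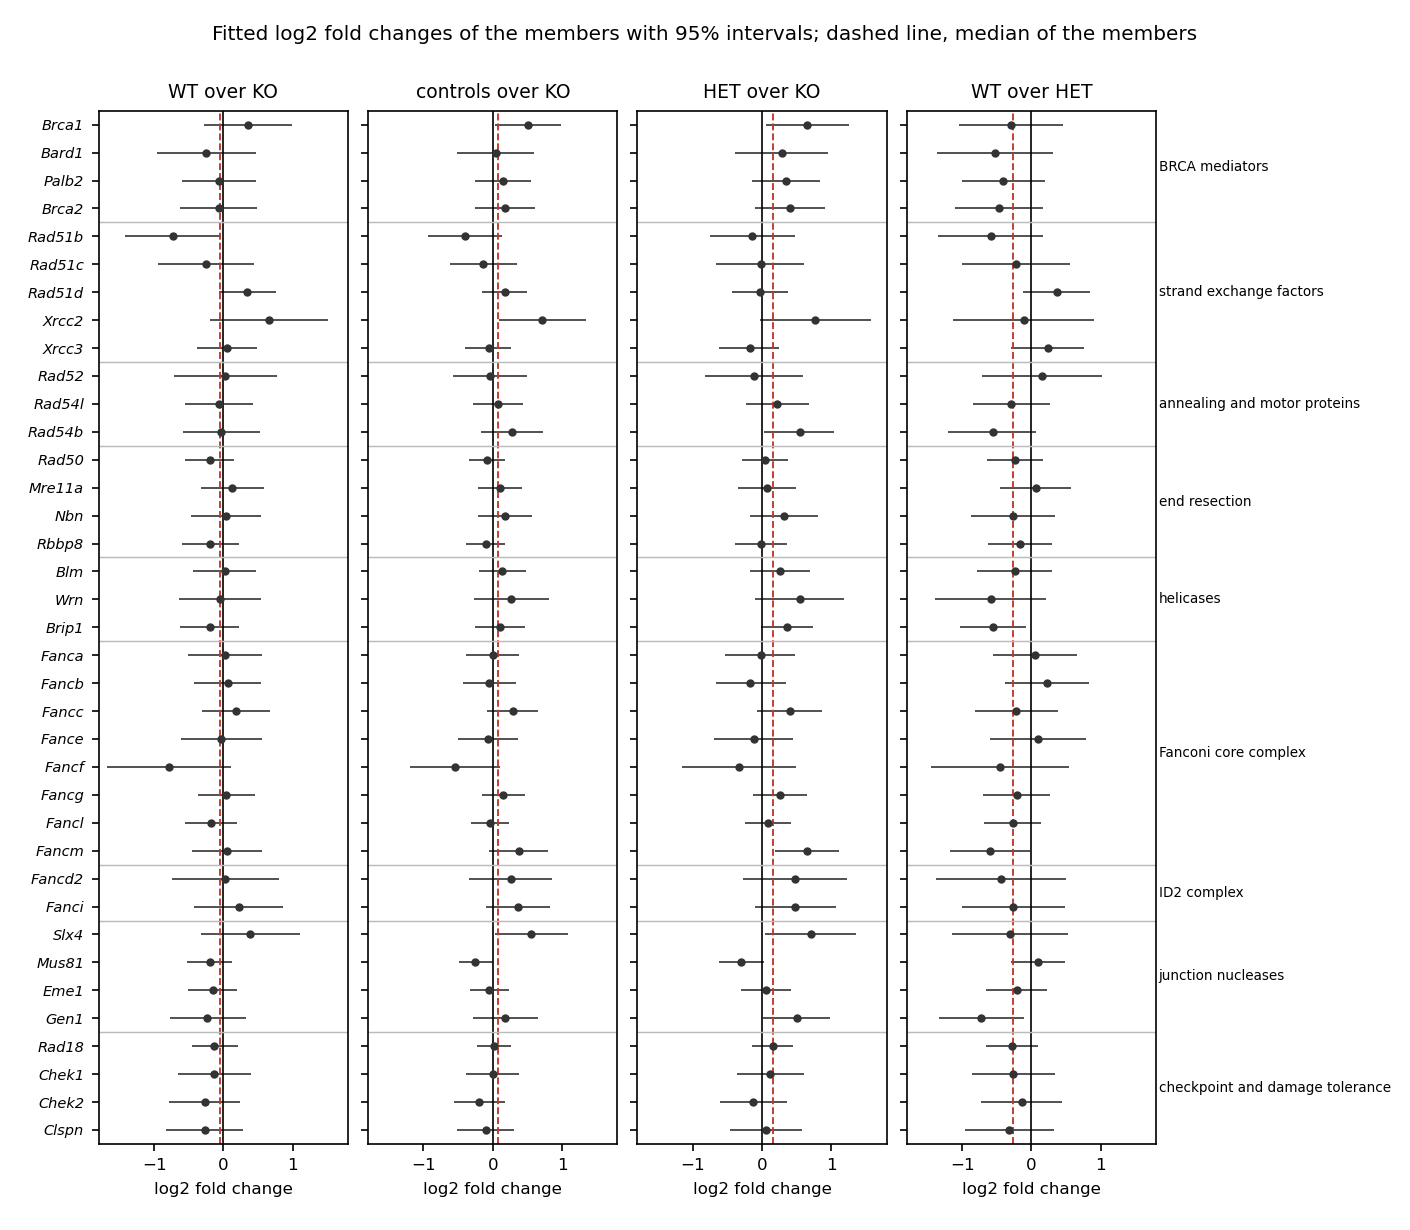
Fitted log2 fold change of each of the 37 members in the 4 comparisons (first genotype over second, controls being WT plus HET), with 95% intervals from edgeR; the red dashed line marks the members' median. The medians are -0.05, 0.08, 0.16 and -0.26 from left to right, most intervals include 0, and no member passed an adjusted p under 0.1.

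In the BRCA mediators, Brca1 had the largest differences from KO. Brca1 (chr11:101488764-101551955, minus strand, GRCm38), whose protein forms a ubiquitin ligase with BARD1, stood at 78 and 52.9 CPM in WT, at 69.7 and 90.8 in HET, and between 29.7 and 74 with a median of 52.2 in KO. The controls lay above the KO median in each of the 4 libraries, but the groups overlapped. The log2 fold change of controls over KO was 0.51 (SE 0.219, 95% interval 0.03 to 0.98, adjusted p = 0.744 in edgeR).

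For the same gene HET over KO gave 0.65 (SE 0.273, adjusted p = 0.456) and WT over KO 0.36 (SE 0.287, adjusted p = 0.999). The latter rested on 1 library, at 0.05 without WT replicate 1 and 0.61 without WT replicate 2. Bard1 stood at 12.7 and 7.98 CPM in WT, 11.9 and 17.8 in HET and between 7.51 and 14.2 with a median of 12.9 in KO, so its groups overlapped. Brca2, which binds single-stranded DNA at the break, was at 46.7 and 30.5 CPM in WT, 53.9 and 53.4 in HET and between 32.4 and 54.5 in KO. Palb2, the bridge between BRCA1 and BRCA2, was at 21.6 and 17.2 in WT, 24 and 27.4 in HET and between 14.1 and 23.7 in KO. For both, the 2 HET libraries lay above the 2 WT libraries, with log2 fold changes of WT over HET of -0.47 (SE 0.289) for Brca2 and -0.41 (SE 0.278) for Palb2, adjusted p = 0.83 and 0.865 in edgeR. Without WT replicate 1 these were -0.82 and -0.58, and without WT replicate 2 they were -0.20 and -0.25.

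The start regions of these genes are shown because the mediators and Clspn are often described with cell cycle genes, whose promoters tend to hold sites for E2F factors and CCAAT boxes. RefSeq windows on GRCm38.p6, 250 bases before to 50 after the start of the gene, were at hand for 29 of the 37 members. Below, Brca1 is the window of chr11:101551906-101552205 (minus strand), Bard1 of chr1:71102923-71103222 (minus), Brca2 of chr5:150522371-150522670 (plus) and Clspn of chr4:126556730-126557029 (plus). Capitals mark the letters searched on both strands, which were TTTCCCGC, TTTCGCGC, TTTGCCGC and TTTGGCGC for E2F, TTTGAA for the cell cycle homology region (CHR) and CCAAT.
Brca1: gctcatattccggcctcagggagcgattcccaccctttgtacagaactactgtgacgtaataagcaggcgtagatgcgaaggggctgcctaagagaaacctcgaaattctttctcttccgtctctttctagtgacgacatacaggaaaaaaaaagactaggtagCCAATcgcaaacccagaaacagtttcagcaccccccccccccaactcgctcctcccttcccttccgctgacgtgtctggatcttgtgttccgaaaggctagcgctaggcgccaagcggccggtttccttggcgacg
Bard1: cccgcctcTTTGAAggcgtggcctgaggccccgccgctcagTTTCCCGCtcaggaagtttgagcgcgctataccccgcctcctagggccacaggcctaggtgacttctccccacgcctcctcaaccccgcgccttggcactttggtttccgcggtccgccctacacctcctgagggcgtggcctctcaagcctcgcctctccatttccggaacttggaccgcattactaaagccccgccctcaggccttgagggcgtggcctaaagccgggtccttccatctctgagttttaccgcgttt
Brca2: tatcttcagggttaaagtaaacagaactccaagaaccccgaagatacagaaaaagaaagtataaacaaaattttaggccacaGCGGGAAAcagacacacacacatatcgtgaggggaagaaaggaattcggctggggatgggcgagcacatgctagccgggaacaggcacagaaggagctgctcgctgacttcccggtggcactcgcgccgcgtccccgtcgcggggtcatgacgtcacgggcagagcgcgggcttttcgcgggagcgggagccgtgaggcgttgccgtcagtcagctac
Clspn: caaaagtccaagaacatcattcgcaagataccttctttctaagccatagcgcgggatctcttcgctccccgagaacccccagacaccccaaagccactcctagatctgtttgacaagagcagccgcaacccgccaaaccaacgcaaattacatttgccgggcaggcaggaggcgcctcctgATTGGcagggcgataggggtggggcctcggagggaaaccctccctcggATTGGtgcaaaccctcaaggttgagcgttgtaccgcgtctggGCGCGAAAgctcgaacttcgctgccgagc

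Counting from the start as 1, the E2F letters began at position -209 in Bard1 (plus orientation), -168 in Brca2 and 22 in Clspn (both in reverse), and Bard1 also held the CHR letters at -242. The Brca1 window held a CCAAT at -86 and no E2F letters, and Clspn held CCAAT in reverse at -69 and -21. E2F letters were in 6 of the 29 windows (20.7%): Bard1, Brca2, Rad51c, Fancg, Chek2 and Clspn. Of 10385 windows of tested genes 3.86% held them, and of 20 windows of proliferation genes 30%. CCAAT was in 17 of 29 (58.6%, against 38.9% of all windows and 85% of those of proliferation genes) and CHR in 2 of 29 (6.90%, against 12.6% and 40%). No hits of different motifs overlapped in the members' windows. The gene start that defines each window lay within 100 bases of the leading transcript's annotated start in 24 of 29, and Bard1, at 174 bases, was not among them. A match describes these letters only and says nothing of binding.

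Among Rad51b, Rad51c, Rad51d, Xrcc2 and Xrcc3, which act together in strand exchange, none passed the test in any comparison, and the fitted values had both signs. Xrcc2 (chr5:25689812-25705825, minus strand) stood at 23.2 and 19.7 CPM in WT, 26.2 and 20.2 in HET and between 6.31 and 21.6 with a median of 13.6 in KO. Only KO replicate 5 reached the controls' range, and the lowest KO values were those of replicates 1 and 6. Controls over KO gave a log2 fold change of 0.71 (SE 0.288, 95% interval 0.09 to 1.34, adjusted p = 0.744 in edgeR), the largest of the 37 in that comparison.

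Without KO replicate 1 the value for Xrcc2 was 0.57, without KO replicate 6 it was 0.64, and over all libraries left out in turn it ran from 0.57 to 0.89. Rad51b went the other way: it was at 6.79 and 7.26 CPM in WT, 10.8 and 10.3 in HET and between 9.10 and 15.9 with a median of 11.5 in KO, and both WT libraries lay below all others. Its log2 fold change of WT over KO was -0.73 (SE 0.315, 95% interval -1.42 to -0.03, adjusted p = 0.999), the member with the smallest p there. Rad51d stood at 37 and 37.8 CPM in WT, above HET at 28.7 and 29.3 and KO between 24.8 and 34.9, with a log2 fold change of WT over KO of 0.34 (SE 0.188, adjusted p = 0.999).

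Members whose libraries did not overlap between WT and KO were few. Rad51d alone (1 of 37, 2.70%) was higher in both WT libraries than in all 6 KO, beside 3.91% of all genes. Fancl, Mus81, Rad51b and Fancf (4 of 37, 10.8%) were lower, beside 2.68%. These separations were in CPM. In TPM the WT and KO libraries of Fancl, Mus81 and Fancf overlapped, while those of Rad51d and Rad51b did not. Between controls and KO, 0 members were higher in every control library, beside 0.996%, and Mus81 alone (2.70%) was lower, beside 0.524%.

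Of the annealing and motor proteins, Rad54l stood at 84.2 and 99.7 CPM in WT, 109 and 116 in HET and between 69.4 and 135 in KO, with a log2 fold change of controls over KO of 0.08 (SE 0.167, 95% interval -0.28 to 0.44, adjusted p = 0.926). Rad54b, its relative, was at 38 and 25 in WT, 49.7 and 43.4 in HET and between 23.3 and 37.8 in KO. In CPM both HET libraries of Rad54b lay above the other 8. In TPM HET replicate 2 (28.9) lay below KO replicates 2 and 4 (32.4 and 33.2). HET over KO was 0.54 (SE 0.23, adjusted p = 0.466) and WT over HET -0.56 (SE 0.291, adjusted p = 0.801) in edgeR. The latter was -0.90 without WT replicate 1 and -0.29 without WT replicate 2. The exons of Rad54b share 2068 bases with Fsbp on the same strand, so reads of these genes could be exchanged.

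The 4 end resection genes had coefficients of variation between 0.118 (Rad50) and 0.194 (Nbn). Their log2 fold changes of controls over KO ran from -0.10 (Rbbp8, SE 0.132) to 0.18 (Nbn, SE 0.178), with adjusted p between 0.827 and 0.898 in edgeR. Mre11a lies on chromosome 9 from 14784654 to 14837123, the chromosome of Zbtb38, and so does Chek1, from 36708482 to 36727065, whereas Zbtb38, on the minus strand, spans 96682770 to 96752831. Their values, 0.10 (SE 0.146) for Mre11a and a difference of 0 to 2 decimals for Chek1 (SE 0.176), were within the spread of the other members.

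Among the helicases, Brip1, a partner of BRCA1 also known as FANCJ, was at 63.1 and 46.7 CPM in WT, 83.7 and 77.3 in HET and between 53.1 and 76 with a median of 62.3 in KO. In CPM both HET libraries lay above all WT and KO libraries. In TPM KO replicate 2 (16) lay between the HET libraries (16.7 and 15.8). WT over HET was -0.55 (SE 0.217, 95% interval -1.03 to -0.08, adjusted p = 0.738) and HET over KO 0.36 (SE 0.173, adjusted p = 0.512). Without WT replicate 1 the former was -0.79, and without WT replicate 2 it was -0.35. Wrn stood at 28.8 and 16.6 CPM in WT, 22.9 and 45.6 in HET and between 16.4 and 28.6 in KO, so that 1 HET library held the highest value and the groups overlapped.

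In the Fanconi core complex, Fancm (chr12:65075603-65132058, plus strand), the translocase that anchors the complex on DNA, had the smallest p of any member in any comparison. It was at 67.7 and 41.2 CPM in WT, 81.5 and 84 in HET and between 38.7 and 62.5 with a median of 53.5 in KO. Both HET libraries were above all others, and WT replicate 2 was close to the lowest KO library. HET over KO was 0.65 (SE 0.209, 95% interval 0.19 to 1.11, adjusted p = 0.37 in edgeR), between 0.57 and 0.71 with each library left out in turn.

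For Fancm WT over HET was -0.60 (SE 0.266, adjusted p = 0.767), and this rested on 1 library: it was -1.01 without WT replicate 1 and -0.29 without WT replicate 2. Fancf, an adaptor subunit, was the most variable member, with a coefficient of variation of 0.405 over the 10 libraries. It stood at 9.63 and 6.67 CPM in WT, 9.72 and 12.6 in HET and between 10 and 24.8 with a median of 12 in KO, the highest value being KO replicate 6. WT over KO was -0.78 (SE 0.404, adjusted p = 0.999). Fancl, the ligase subunit, was at 46 and 40.5 CPM in WT, 51.6 and 52.6 in HET and between 46.1 and 59.8 in KO, with a coefficient of variation of 0.106. The other 5 core genes had log2 fold changes of controls over KO between -0.07 (Fance, SE 0.198) and 0.29 (Fancc, SE 0.171).

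The substrate pair of the core complex had higher fitted values in the controls than in KO, neither passing the test. Fancd2 was at 52.6 and 48.8 CPM in WT, 51.7 and 85.9 in HET and between 24.1 and 76.2 with a median of 50.7 in KO. Fanci was at 71.5 and 55.8 in WT, 77.7 and 74.9 in HET and between 29.6 and 74.2 with a median of 56.8 in KO. The lowest value of Fancd2 was in KO replicate 6 and that of Fanci in KO replicate 1. Controls over KO was 0.26 (SE 0.278, adjusted p = 0.841) for Fancd2 and 0.36 (SE 0.213, adjusted p = 0.744) for Fanci. Without HET replicate 2 the value for Fancd2 was 0.03. Exons of Fanci overlap 665 bases of Polg on the opposite strand, and those of Fancd2 overlap 256 bases of Fancd2os, and whether the counting used strand is not given in the sources used here. In all, 10 members had exons overlapping another coding gene, among them Fancl with 462 bases of Vrk2 and Fanca with 552 bases of Zfp276. Both of these overlaps are with the opposite strand.

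The junction nucleases held differences of both signs. Slx4 (chr16:3979105-4003770, minus strand) was at 83.6 and 54.9 CPM in WT, 84.5 and 87.6 in HET and between 29.3 and 74.5 with a median of 51.7 in KO. Of the 4 control libraries 3 lay above every KO library, and WT replicate 2 lay among them. Controls over KO was 0.55 (SE 0.242, 95% interval 0.03 to 1.08, adjusted p = 0.744 in edgeR) and HET over KO 0.70 (SE 0.301, adjusted p = 0.465).

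Mus81 (chr19:5482345-5488402, minus strand) went the other way. It stood at 51.3 and 55.9 CPM in WT, 54.8 and 45.5 in HET and between 57 and 69.8 with a median of 59.8 in KO, and every KO library lay above every control library. The difference was small: controls over KO was -0.25 (SE 0.113, adjusted p = 0.744), and -0.11 on the log2(TPM + 1) scale. In TPM the groups overlapped, with 38.6 and 44 in WT, 40.8 and 35 in HET and between 33.1 and 54.9 in KO. Eme1, the partner of MUS81 in the active enzyme, was at 33.9 and 37.6 CPM in WT, 35 and 47.8 in HET and between 36.8 and 42.4 in KO, with controls over KO at -0.05 (SE 0.131, adjusted p = 0.951).

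Gen1 (chr12:11238920-11265801, minus strand), a resolvase that cuts Holliday junctions on its own, had the smallest p between WT and HET. It was at 26.6 and 27.5 CPM in WT, 43.3 and 46.2 in HET and between 21.5 and 42.5 with a median of 31.7 in KO. The 2 HET libraries were above the other 8, and the 2 WT libraries lay within the KO range. In TPM the HET libraries, at 14 and 17.6, overlapped those of KO, between 5.89 and 19.2. WT over HET was -0.73 (SE 0.28, 95% interval -1.34 to -0.11, adjusted p = 0.717 in edgeR) and HET over KO 0.50 (SE 0.222, adjusted p = 0.483). In a fit of only the 4 WT and HET libraries, Gen1 was -0.72 (SE 0.163, adjusted p = 0.087), the only call of a member under any setting tried, in a fit that called 523 genes in all.

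**Figure D4:**
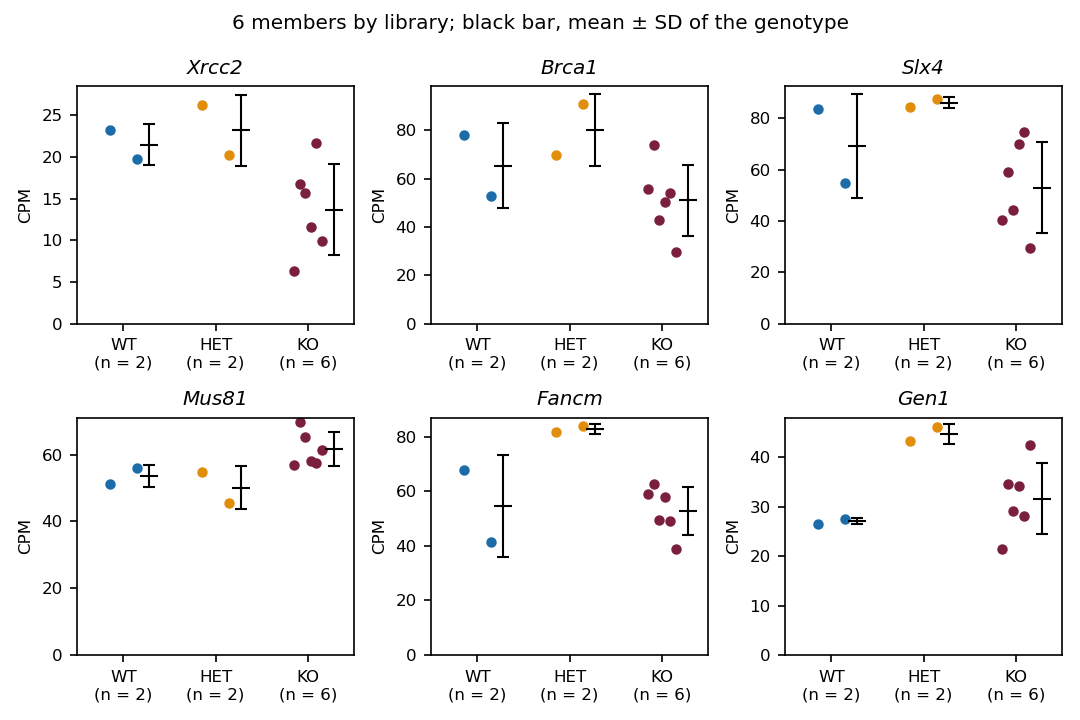
CPM of 6 members in each library by genotype, with the mean and SD of each genotype in black: the 4 members with an unadjusted p under 0.05 between controls and KO (Xrcc2, Brca1, Slx4, Mus81) and those with the smallest p for HET over KO (Fancm) and WT over HET (Gen1). All 6 KO values of Mus81, between 57 and 69.8, lie above the controls, the HET values of Fancm (81.5 and 84) and Gen1 (43.3 and 46.2) lie above all others, and the groups of Xrcc2, Brca1 and Slx4 overlap.

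In the checkpoint and damage tolerance group, Rad18 varied least of all members, with a coefficient of variation of 0.0947 over the 10 libraries. It was at 58.8 and 57.5 CPM in WT, 71.9 and 69.5 in HET and between 56.9 and 73.2 in KO, and controls over KO was 0.02 (SE 0.115, 95% interval -0.23 to 0.27, adjusted p = 0.981 in edgeR). Chek1, the kinase that halts the cycle when forks stall, was at 47.3 and 31 CPM in WT, 46.9 and 46.8 in HET and between 32.1 and 55.9 in KO. Clspn was at 48.9 and 35.7 in WT, 48 and 57.6 in HET and between 37.3 and 62.8 in KO, and controls over KO was -0.10 (SE 0.19, adjusted p = 0.919). For Chek1 and Clspn the libraries of the genotypes overlapped in each comparison, and none of the differences passed the test.

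Over all members, the coefficient of variation of CPM had a median of 0.194, beside 0.203 for the 6048 tested genes within the members' range of mean CPM. The most variable after Fancf were Xrcc2 (0.368) and Fancd2 (0.332), and the steadiest after Rad18 were Fancl (0.106) and Eme1 (0.107).

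The members' values were highest in the 2 HET libraries and in KO replicate 2. Taking each member's log2 CPM relative to its mean over the 10 libraries, the median over the 37 members was 0.11 and 0.13 in HET, 0.04 and -0.15 in WT and between -0.07 and 0.11 in KO. HET replicate 2 held the highest value of 10 members, KO replicate 6 of 9 and HET replicate 1 of 7, while WT replicate 2 held the lowest value of 9 and KO replicate 6 of 8. Between HET and KO, 7 of 37 members (18.9%) were higher in CPM in both HET libraries than in every KO library, namely Brip1, Fanci, Slx4, Palb2, Gen1, Fancm and Rad54b, beside 8.12% of all genes, and Mus81 alone (2.70%) was lower, beside 5.76%. In TPM the HET and KO libraries of Brip1, Fanci, Palb2, Gen1, Rad54b and Mus81 overlapped, and only those of Slx4 and Fancm stayed apart. Between WT and HET, 17 of 37 (45.9%) were lower in CPM in both WT libraries, beside 23.5% of all genes, and Rad51d alone was higher, beside 24.5%. In TPM the WT and HET libraries of Fancl, Fanci and Fancf overlapped. The others stayed apart, Slx4 narrowly, at 46.8 in WT replicate 1 against 46.9 in HET replicate 2.

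Other gene lists differed between the same libraries. The summed TPM of 10 T cell markers was 155 and 163 in HET, 315 and 335 in WT and between 151 and 248 in KO. For 7 naive B cell markers it was 322 and 358 in HET, 639 and 746 in WT and between 371 and 840 in KO, and for 9 myeloid markers 101 and 105 in HET, 577 and 709 in WT and between 96.2 and 997 in KO. The 6 erythroid markers summed to 114 and 104 TPM in HET, 133 and 187 in WT and between 176 and 257 in KO. Lck alone gave 122 and 120 TPM of the T cell sums in HET and 116 and 124 in WT. In KO it gave between 77 and 122. Hbb-bt alone gave 99.8 and 97.8 TPM of the erythroid sums in HET and 100 and 101 in WT. In KO it gave between 96.4 and 177. None of the T cell, naive B cell and myeloid markers was at 0 in any library, and 7 of 10, 7 of 7 and 7 of 9 were at 1 TPM or more in all. Over all 8 marker lists edgeR called 0 genes in the 4 comparisons as fitted above, while for WT over HET DESeq2 called 11 genes higher in WT and edgeR on only the WT and HET libraries 19 higher and 4 lower. For HET over KO DESeq2 called 1 higher and 13 lower in HET.

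The 24 proliferation genes, such as cyclins and MCM helicase subunits, had their highest summed TPM in HET. The sums were 5490 and 5640 TPM in HET, 4900 and 4320 in WT and between 3720 and 5440 in KO. By median deviation of log2 CPM they were highest in KO replicate 5, at 0.20, above HET at 0.13 and 0.18. Of these 24, 0 were higher in WT than in HET by fitted value, their median was -0.31 on the log2 scale, and in edgeR on all 10 libraries 0 passed an adjusted p under 0.1 while 5 had an unadjusted p under 0.05. On only the WT and HET libraries Top2a passed (-0.58, SE 0.12, adjusted p = 0.0727 in edgeR). For HET over KO 19 of 24 were higher, with a median of 0.15, 5 had an unadjusted p under 0.05, and DESeq2 called Top2a and Bub1. The 8 dark zone markers summed to 993 and 1010 TPM in HET, 869 and 705 in WT and between 597 and 958 in KO, and the 13 further Fanconi genes to 864 and 930 in HET, 768 and 789 in WT and between 722 and 833 in KO. By median deviation the dark zone markers stood at 0.13 in HET replicate 1 and in KO replicate 5. The further Fanconi genes stood at 0.04 and 0.10 in HET and at 0.10 in KO replicate 6. The part of proliferating cells, of other cell types and of the 2 HET mice themselves in the members' values was not tested, and in sorted bulk cells more cells of a kind and more RNA per cell cannot be told apart.

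**Figure D5:**
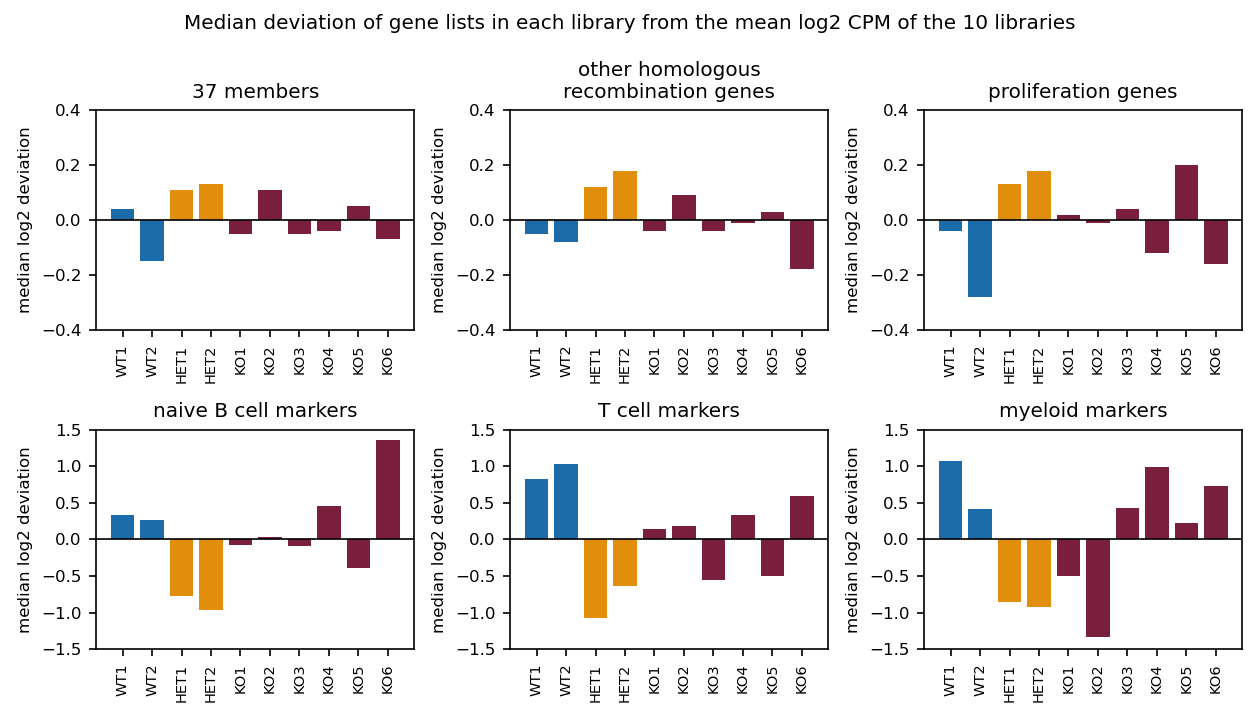
Median log2 deviation of the genes of 6 lists in each library from their mean over the 10 libraries (WT blue, HET orange, KO dark red); the upper row runs from -0.4 to 0.4 and the lower row from -1.5 to 1.5. In both HET libraries the 37 members (0.11 and 0.13) and the proliferation genes (0.13 and 0.18) lie above 0, and the naive B cell, T cell and myeloid markers lie below 0. The proliferation genes lie highest in KO replicate 5, at 0.20.

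Transcript length also moved with some KO libraries. Genes were ranked by the length of their leading transcript, whose median was 3025 bases in the members and 2542 in all tested genes. In KO replicate 1 the genes above the upper quartile of length (3866 bases) had a median deviation of -0.27 and those below the lower quartile (1527 bases) 0.27, and the 18 longer members stood at -0.34 against 0.05 for the 19 shorter ones. In KO replicate 6 these genes were at -0.17 and 0.11, and the members at 0.02 and -0.10. The summed TPM of the members was lowest in these libraries, at 580 and 642, against 695 to 885 in the other 8. Leaving out KO replicate 1, the members at an unadjusted p under 0.05 numbered 1, 3, 3 and 2 for WT over KO, controls over KO, HET over KO and WT over HET, and leaving out KO replicate 6 they numbered 1, 2, 4 and 3, with 0 called in each case.

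Other genes of these pathways were counted from fixed lists. Of 32 further homologous recombination genes tested, 13 Fanconi genes and 17 checkpoint genes, 0 had an adjusted p under 0.1 in edgeR in any of the 4 comparisons as fitted above. On only the WT and HET libraries edgeR called Dmc1 and Rfwd3 (adjusted p = 0.0614 and 0.0727). DESeq2 called 4 of them for HET over KO (Dmc1, Fan1, Rfwd3 and Trp53bp1), where it called 2.89% of all genes, and 3 for WT over HET (Dmc1, Fan1 and Rfwd3), where it called 0.961%. In HET over KO, Dmc1 (log2 fold change -5.65) and Fan1 (-3.27) were lower in HET, and Rfwd3 (0.55) and Trp53bp1 (0.92) higher. For WT over HET Dmc1 and Fan1 were higher in WT and Rfwd3 lower. Dmc1 was at 0 CPM in both HET libraries and at most 1.73 elsewhere. Fan1 was at 0.0319 and 0.217 CPM in HET and at most 2.97 elsewhere, so both were near the limit of detection. For controls over KO the numbers at an unadjusted p under 0.05 were 4 of 32, 0 of 13 and 3 of 17, beside 6.3% of all genes. Trp53bp1, which shields broken ends from resection, had the smallest p of them, at 53.8 and 66.3 CPM in WT, 76 and 75.4 in HET and between 26.8 and 61.9 in KO, with controls over KO at 0.75 (SE 0.224, adjusted p = 0.744 in edgeR). Top3a, the topoisomerase that works with BLM, was at 48.3 and 41.7 CPM in WT, 41.1 and 38.9 in HET and between 20.9 and 41.3 in KO, with controls over KO at 0.59 (SE 0.181, adjusted p = 0.744).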

How the data were processed

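The authors sequenced SMART-Seq v4 libraries with paired ends and mapped the reads to the transcripts of Gencode vM17, with Salmon 0.9.1 named in the processing notes. They deposited estimated counts per transcript, not normalized, and TPM values. Counts and TPM were summed per gene identifier, members were matched by symbol, and counts were rounded. WT against KO and WT plus HET against KO were fitted on their own libraries, and HET against KO and WT against HET on all 10, by edgeR 4.0.16 (quasi-likelihood, TMM factors between 0.923 and 1.07, filterByExpr, Benjamini-Hochberg over all genes tested at 0.1) in R 4.3.3, checked on simulated data with 200 changed genes. SE is the fold change divided by the root of F. Alternatives were DESeq2 1.42.0, limma 3.58.1 on log2(TPM + 1) and log2(TPM + 0.1), other filters, scalings and sample sets, a replicate block and each library left out. CPM used TMM sizes. Positions came from Gencode vM21.

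Within each genotype the libraries differed by more than counting error on average. The chi-square between pairs of libraries, averaged over genes, ran from 27.8 to 170, which gives no value for single genes. The p-values measure the spread between these mice. The members and lists were chosen with earlier results of these data known. Genes named are the 6 with the smallest p per comparison, the 5 highest and 5 lowest in TPM, the 3 most and 3 least variable, Brca1, Brca2, Bard1, Palb2, Fancd2, Fanci, Chek1 and Clspn, and 2 per further list, while a further gene of that rule and a sorting marker are not reported here; Fance, Fancc, Rad50, Nbn, Rbbp8, Mre11a and Rad51c were named after their values were seen, and DESeq2 gave further names. The lists of T cell, myeloid, erythroid, naive B cell, plasma cell, germinal center, dark zone and light zone markers had 0 genes called in these edgeR fits.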

Additional observations from a re-analysis of the deposited data

Results flagged for a closer look

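In 5 of the 46 groups of libraries checked, 1 value of a named member lay far from the others by Dixon's test at its 95% limit. About 2.3 would be expected by chance for members picked without regard to their values. Some were named for their spread or p in these data, and the control groups joined WT and HET, so that number is no fair yardstick here. Bard1 was at 7.51 CPM in KO replicate 1, and the next KO library was at 12.3. Fancl was at 59.8 CPM in the same library, with the next at 48.4. Fancd2 was at 85.9 CPM in HET replicate 2, with the next control library at 52.6. Slx4 was at 54.9 CPM in WT replicate 2, with the next control at 83.6, and Chek1 was at 31 CPM in WT replicate 2, with the next at 46.8.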

How the results depend on the processing

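Under every alternative run, 0 members were called for WT over KO, controls over KO and HET over KO. For WT over HET, a fit of only those 4 libraries called 1 member (Gen1) among 523 genes, which was the only exception. Members at an unadjusted p under 0.05 numbered 1 for WT over KO, 0 with no filter, with at least 10 counts in every library and with limma on log2(TPM + 1) or log2(TPM + 0.1), and 0 to 2 with each library left out. For controls over KO they numbered 4, 2 with the replicate block, length-scaled counts and either limma scale, and 0 to 6 with each library left out. For HET over KO they ran from 0 to 7 and for WT over HET from 0 to 5 with each library left out. The members' median log2 fold change for WT over KO was 0.09 on both limma scales, where the median of all genes moved from -0.01 to 0.11 and 0.16, so relative to all genes it stayed below. For controls over KO it was 0.08, and 0.16 and 0.18 on the limma scales, where that of all genes moved from -0.02 to 0.08 and 0.11. With each library left out it ran from -0.17 to 0.05 for WT over KO, 0.02 (without HET replicate 2) to 0.12 for controls over KO, 0.08 to 0.20 for HET over KO and -0.41 to -0.15 for WT over HET. DESeq2 called 6 companion genes for HET over KO and 3 for WT over HET, and the fit of only the WT and HET libraries called 3 (Top2a, Dmc1 and Rfwd3). With 1 library of a genotype left, it was assumed to vary like the others, and the causes were not tested.

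Correlations between the deviations of same-numbered libraries from their genotype means ran from -0.014 to 0.117. With 2 libraries in WT and in HET, the deviations of replicate 1 mirror those of replicate 2. This check therefore cannot decide whether the replicate numbers pair the mice. With the replicate block the members at an unadjusted p under 0.05 numbered 1, 2, 4 and 2 in the 4 comparisons, 0 were called, and all genes called numbered 6, 0, 4 and 66. The block gave Zbtb38 2.12 for WT over KO and 1.86 for controls over KO, no longer past the threshold. With length-scaled counts and with limma on log2(TPM + 1), 0 genes were called in either comparison. Zbtb38 therefore did not pass there. For controls over KO the same held with limma on log2(TPM + 0.1). DESeq2 gave Zbtb38 1.82 for HET over KO, past the threshold, where edgeR had an adjusted p = 0.128. With each library left out it ran from 2.19 to 2.49 for WT over KO and from 1.70 to 2.00 for HET over KO.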
